A study of Arabidopsis thaliana x Arabidopsis lyrata and Arabidopsis thaliana x Arabidopsis halleri with 18 samples.

Results

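One hour at 4 °C was compared with standard growth in F1 hybrids whose labels name *Arabidopsis thaliana* Col-0 as one parent and *Arabidopsis halleri* as the other. The comparison took the 3 cold and the 3 standard plants of that hybrid, 6 of the 18 libraries of the series, by their labels alone. All plants were 4 weeks old; the halleri-labelled ones carried the ecotype label Col-0xh2.2 and the lyrata-labelled ones Col-0xMN47. A library came from a single plant, and the labels describe replicates grown at weekly intervals, so plant and week cannot be told apart between replicates. Cold plants were kept at 4 °C for 1 hour in dim light, against standard plants that stayed at 22 °C under 16 h of light and 8 h of dark. The labels describe the extracted material as the whole aerial part but call the standard material leaf samples, and they give no time of day. Temperature, light level, tissue and clock time therefore cannot be told apart in any difference between cold and standard plants. In bulk tissue, fewer cells of a type and less RNA per cell cannot be told apart either. The other groups used were the 3 dehydrated plants of the same hybrid (1 hour out of the agar at 22 °C in dim light) and the 3 cold and 3 standard plants of the lyrata-labelled hybrid. The series title asks how the cis-regulation of stress-responsive genes has diverged in this genus.

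The file headers named the second allele of the halleri-labelled plants as *A. lyrata* and that of the lyrata-labelled plants as *A. halleri*. The plants are therefore called halleri-labelled and lyrata-labelled, and their second allele is given as the non-thaliana one. Which relative it came from cannot be told from these sources.

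In *A. thaliana*, falling temperature is read within minutes through calcium signals and the transcription factor ICE1, and CBF transcription factors then switch on COR genes, whose products stabilise membranes and proteins. The circadian clock gates this programme: morning factors such as CCA1 and LHY, the PRR repressors and the evening complex of LUX, ELF3 and ELF4 repress each other in turn over the day. Abscisic acid, jasmonate and touch signals share many targets with cold, because all of them change water status, calcium or membrane state.

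Each library listed a value per allele for 16419 genes. The 2 allele values were summed, the 1 that had been added to each was removed, and the sum was scaled between libraries; this scaled value is the level given throughout, and it is not corrected for gene length. Deposited totals of the 6 libraries lay between 1527802 and 1528953, because the authors had scaled them to a near-equal total, and 10355 to 11874 genes per plant reached a summed value of 10. Plants or groups stood apart in 3 ways that touch results given below. First, the highest values of the cold plants were crowded: 12, 16 and 15 genes lay within 5% of the highest summed value, which was 5537, 7589 and 6320 in cold replicates 1 to 3, against 1 gene each and highest values of 30721, 54856 and 58645 in standard replicates 1 to 3. Of the 23 genes so placed in any cold plant, 17 are on the photosynthesis list. Second, standard replicate 1 held 422 tested genes at 5 times or more of both other standard plants, against 29 and 27 in standard replicates 2 and 3 and 174, 47 and 37 in cold replicates 1 to 3. In addition, cold replicate 1 had 7 of 8 root markers above 0 (summed value 70.8, of which PRP3 gave 44.4), against summed values of 0 to 0.965 in the other 5 plants, where all 8 were at 0 except MYB36 in cold replicate 3. Over the 17 other libraries of the series, up to 6 root markers were above 0, with summed values of 0 to 52.7. What part these features had in a result was not tested beyond leaving out the plant. The 30 photosynthesis genes in the files were above 0 in all 6 plants, while the 6 floral markers summed to 7.68, 1.11 and 12.5 in the cold plants, against 19.7, 37.9 and 31.2 in the standard plants. The floral sums did not overlap, PI and SEP3 made up most of them, AP1 and LFY were listed at 0 in all 6 plants, and the part of floral tissue in any result was not tested.

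**Figure D1:**
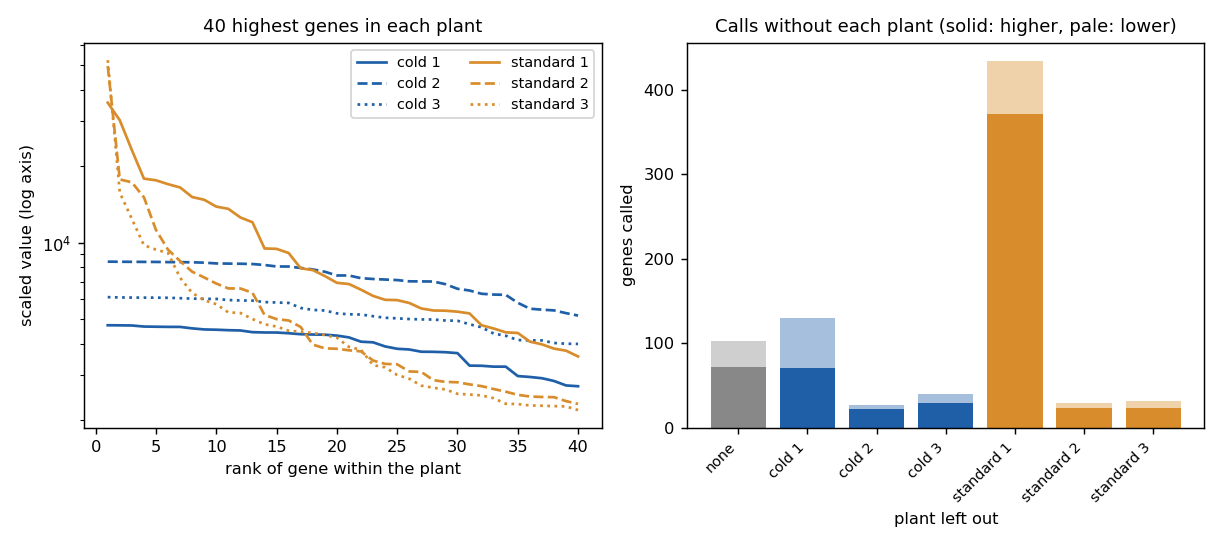
Left, scaled value (log axis) against rank for the 40 highest genes of each of the 3 cold and 3 standard halleri-labelled plants; right, the number of genes called in cold against standard plants with no plant left out and without each plant in turn, solid for higher and pale for lower in cold. The cold curves run flat over their first ranks while the standard curves fall steeply, and the count was 434 without standard replicate 1 against 102 with all plants.

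Across 11564 genes, limma on log2 of the scaled value plus 2 called 102 genes at an adjusted p below 0.05, which is 0.882% of those tested. Cold was higher for 72 of them (0.623%) and lower for 30 (0.259%), and 1616 genes had an unadjusted p under 0.05. In every called gene except TOR the 3 cold plants did not overlap the 3 standard plants, a pattern that 16.7% of all genes tested showed (7.96% with cold higher and 8.77% with cold lower). The median log2 fold change was 3.33 among the rises and -2.60 among the falls, against 0.004 over all genes. A fit of the 6 compared libraries alone, with their own estimate of the spread, called 2 genes, AT3G02480 and PRR5 (1242 at an unadjusted p under 0.05), and these were also the 2 called under every alternative tried. In that fit LUX, COR28, USPL1, GSTU13, AT5G44568 and AT1G64680 were among the genes that shared an adjusted p of 0.0744. A fit without 1 of the 6 plants leaves 2 plants in its group. Whether a call was then lost through the smaller group or through the plant itself was not tested. In every such fit 15 of the 102 calls were kept. These were AT3G02480, PRR5, USPL1, LUX, COR28, AT3G15780, AT1G64680, AT1G64310, AMT1;2, RGF9, GSTU13, AT2G32870 and AT4G38010 among the rises, and AT5G44568 and AT1G52670 among the falls. Leaving out cold replicate 1 gave 130 calls (70 higher, 60 lower), cold replicate 2 gave 27, cold replicate 3 gave 40, standard replicate 2 gave 29 and standard replicate 3 gave 31. Without standard replicate 1 it was 434 (371 higher, 63 lower), and 96 of the 102 were among them.

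The largest rise belonged to AT3G02480, a late embryogenesis abundant family gene, of a group of proteins known for accumulating in drying seeds and in tissue short of water (chromosome 3, 512220 to 513036, TAIR10.1). Its scaled value was 183, 274 and 482 in the cold plants and was listed at 0 in all 3 standard plants (limma adjusted p = 5.03e-05). Every cold plant thus lay far above every standard plant, and no fold is given against a group listed at 0. Both alleles appeared in the cold: the thaliana allele had 99, 128 and 210, and the non-thaliana allele had 116, 119 and 290, as deposited after removing the added 1. The 300 bases around its annotated start, from 250 before to 50 after, are shown because they hold several copies of ACGTG, the core of the abscisic acid response element. The window is chr3:511970-512269 on the plus strand of TAIR10.1 (RefSeq), and capitals mark ACGTG on either strand.
AT3G02480: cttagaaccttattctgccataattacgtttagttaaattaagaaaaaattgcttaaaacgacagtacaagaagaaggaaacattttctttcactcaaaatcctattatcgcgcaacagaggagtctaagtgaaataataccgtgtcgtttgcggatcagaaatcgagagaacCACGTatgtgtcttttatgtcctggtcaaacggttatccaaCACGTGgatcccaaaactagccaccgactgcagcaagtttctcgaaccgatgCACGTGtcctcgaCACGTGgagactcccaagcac
It held 7 matches to ACGTG, 6 of them as the 2 strands of 3 CACGTG palindromes, the G-box. The first G-box lay before the annotated start and the others lay after it. Of 11558 promoters of tested genes with such a window, 27.6% held ACGTG, 9.57% held CACGTG, and 13 (0.112%) held CACGTG 3 times or more. The cutoff of 3 is the count in this gene, so the 0.112% is a description. Among the 72 rises 37.5% held ACGTG and 9.72% held CACGTG, so the larger part of the rises had neither G-box nor ACGTG in this window. A match describes letters in the window and does not show binding.

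PRR5 had the next largest fold change with 2 added before log2, an order that other added values change. Its product represses morning clock genes towards the evening (chromosome 5, 8356204 to 8358546). Its scaled value was 108, 137 and 130 in the cold plants, against 0, 4.52 and 1.78 in the standard plants, a log2 fold change of 5.11 ± 0.55 (SE, adjusted p = 8.54e-05). The cold plants lay close together and far above the standard plants, and the call held under all 17 other settings. LUX, the DNA-binding member of the evening complex (chromosome 3, 17183042 to 17186959), had 122, 32.1 and 44.4 in the cold plants, against 1.16, 0.904 and 1.78 in the standard plants. Its log2 fold change was 4.16 ± 0.61 (adjusted p = 0.00264), and cold replicate 1 stood above the other cold plants. COR28, a cold-regulated gene known as a night-time regulator linked to the clock (chromosome 4, 16282281 to 16285229), had 25.6, 51.0 and 42.4 in the cold plants and was listed at 0 in all standard plants (adjusted p = 0.00209).

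The rest of the clock did not pass the test in either direction, and its members differed among themselves. Of 28 clock genes tested on 4 lists, PRR5 and LUX rose and none fell, while 6 were higher and 3 lower at an unadjusted p under 0.05 by limma. FKF1, a blue-light receptor F-box protein of the long-day pathway, had 45.2, 14.4 and 21.2 in the cold plants and was listed at 0 in all standard plants (adjusted p = 0.0552). CHE, a repressor of CCA1, had 46.9, 144 and 150 in the cold plants, against 28.9, 27.1 and 26.7 in the standard plants (log2 fold change 1.80 ± 0.55, adjusted p = 0.123); it was called without cold replicate 1. Neither pair of groups overlapped. ELF4, also of the evening complex, was under the filter, with 66.6, 8.87 and 20.3 in the cold plants and 3.47, 0.904 and 2.67 in the standard plants. GI, which stabilises the FKF1 family, lay the other way without overlap, with 28.2, 39.9 and 22.2 in the cold plants and 102, 71.4 and 44.5 in the standard plants (-1.18 ± 0.51, adjusted p = 0.305). TOC1, the founding PRR gene, had 84.5, 25.5 and 47.3 in the cold plants, against 0, 36.1 and 23.2 in the standard plants, and the groups overlapped. The 4 PRR genes other than PRR5 had log2 fold changes of 0.37 to 1.98, and the list median was 0.54 (0.48 to 0.81 without 1 plant). The 7 evening genes tested had a median of 1.21 (0.70 to 1.52).

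The morning factors pointed downwards on balance without passing the test: 8 of 11 had a negative log2 fold change, with a median of -0.50. LHY had 23.0, 24.4 and 55.9 in the cold plants, against 276, 106 and 39.2 in the standard plants (-1.67 ± 0.70, adjusted p = 0.279), so the groups overlapped at standard replicate 3. CCA1 had 27.3, 205 and 55.0 in the cold plants, against 81.0, 186 and 111 in the standard plants (-0.78 ± 0.74). LNK3, of the family of coactivators of the morning RVE factors, had 143, 262 and 237 in the cold plants and 438, 553 and 494 in the standard plants (-1.24 ± 0.42, adjusted p = 0.17), with no overlap. The list median was 0.15 without cold replicate 1. It stayed negative without any 1 other plant, from -1.28 without cold replicate 2 to -0.45 without cold replicate 3. The downward lean of the morning factors was thus lost without cold replicate 1 alone. The 5 clock outputs tested had a median of -0.13, which was 0.39 without cold replicate 1, and none had an unadjusted p under 0.05.

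**Figure D2:**
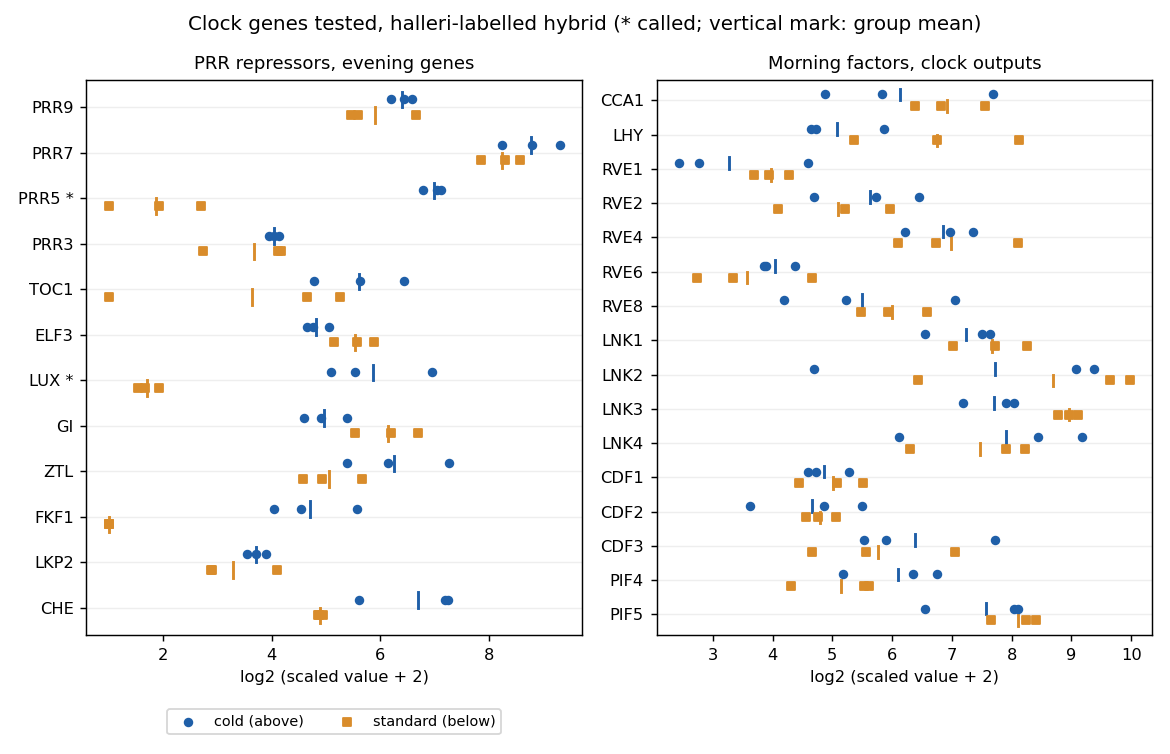
log2 of the scaled value plus 2 in each plant for the 28 clock genes tested, with cold plants as circles above standard plants as squares on each row, group means as vertical marks and called genes starred. PRR5, LUX and FKF1 show cold plants far above standard plants, while PRR7, PRR3 and the morning factors other than LNK3 interleave.

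The promoter windows of 4 of the rises are shown because each holds the evening element AAAATATCT, the site known for clock-dependent evening expression in *A. thaliana*. Capitals mark that match on either strand, the sequences read 5′ to 3′ on the gene's strand from 250 bases before to 50 after its annotated start, and they come from TAIR10.1 (RefSeq). The windows are chr5:8358497-8358796 (minus strand) for PRR5, chr3:17182792-17183091 (plus) for LUX, chr4:16285180-16285479 (minus) for COR28 and chr1:18399753-18400052 (plus) for ABF1.
PRR5: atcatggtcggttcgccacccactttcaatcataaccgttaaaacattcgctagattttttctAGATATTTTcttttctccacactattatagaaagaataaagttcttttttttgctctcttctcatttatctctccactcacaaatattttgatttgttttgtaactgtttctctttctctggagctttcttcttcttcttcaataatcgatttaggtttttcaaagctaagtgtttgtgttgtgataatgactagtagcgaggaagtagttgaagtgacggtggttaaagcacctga
LUX: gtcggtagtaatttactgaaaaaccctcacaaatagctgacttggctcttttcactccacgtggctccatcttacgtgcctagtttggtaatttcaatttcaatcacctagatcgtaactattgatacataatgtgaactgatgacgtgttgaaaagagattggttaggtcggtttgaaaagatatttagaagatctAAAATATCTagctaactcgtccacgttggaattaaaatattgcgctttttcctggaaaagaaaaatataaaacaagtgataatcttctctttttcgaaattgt
COR28: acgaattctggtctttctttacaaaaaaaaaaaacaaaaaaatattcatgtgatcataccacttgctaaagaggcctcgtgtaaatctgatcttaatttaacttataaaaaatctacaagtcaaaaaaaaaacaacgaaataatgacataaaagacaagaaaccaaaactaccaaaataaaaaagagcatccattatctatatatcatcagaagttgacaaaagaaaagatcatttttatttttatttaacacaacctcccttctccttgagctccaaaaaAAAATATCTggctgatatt
ABF1: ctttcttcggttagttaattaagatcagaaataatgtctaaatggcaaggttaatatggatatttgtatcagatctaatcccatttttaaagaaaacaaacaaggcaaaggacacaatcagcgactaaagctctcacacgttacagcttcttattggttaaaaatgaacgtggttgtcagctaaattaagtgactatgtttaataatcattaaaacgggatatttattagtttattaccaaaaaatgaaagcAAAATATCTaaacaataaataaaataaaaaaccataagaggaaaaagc
The match begins 187 bases before the start on the opposite strand in PRR5 and 53 bases before it on the gene's own strand in LUX, and it lies just after the annotated start in COR28 and ABF1. In all, 6 of the 72 rises (8.33%) and 1 of the 30 falls (3.33%) held AAAATATCT, against 343 of 11558 promoters (2.97%). The other rises with it were AT2G16365 and AT4G24015, and the fall was AT3G14200, annotated as a DnaJ-domain chaperone. CCGAC, the core of the element that CBF factors bind, was in 15.3% of the rises, 13.3% of the falls and 16.7% of all promoters. CGCGT, the core bound by CAMTA factors, was in 4.17% of the rises, 20% of the falls (6 of 30) and 9.96% of all promoters. AAAAATCT, a site of CCA1, was in 8.33% of the rises, none of the falls and 8.66% of all promoters. These windows are from the Col-0 genome, so they describe the thaliana allele only.

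The other 9 of the 12 largest rises followed. AT4G05070, annotated as wound-responsive, had 409, 544 and 461 in the cold plants, against 68.2, 5.42 and 9.80 in the standard plants (4.68 ± 0.80, adjusted p = 0.00853). CIPK4, a kinase of the family that partners calcineurin B-like calcium sensors, had 84.5, 79.8 and 90.7 in the cold plants, against 9.25, 3.61 and 0 in the standard plants (4.11 ± 0.73, adjusted p = 0.00853). Its cold plants were among the most even of the named genes. EXPA5, an expansin, a type of protein that loosens cell walls, had 59.7, 80.9 and 112 in the cold plants, against 1.16, 0 and 13.4 in the standard plants (4.18 ± 0.74, adjusted p = 0.00853). OPR3, the peroxisomal reductase of jasmonate synthesis, had 141, 121 and 65.6 in the cold plants, against 9.25, 4.52 and 1.78 in the standard plants (4.02 ± 0.85, adjusted p = 0.0282). No cold plant overlapped a standard plant in these 4 genes, but the OPR3 call was lost without any 1 plant other than standard replicate 1, those of AT4G05070 and EXPA5 without standard replicate 2, and that of CIPK4 without standard replicate 3. In AT4G05070, standard replicate 1 stood 5 times or more above the other standard plants.

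USPL1, annotated as similar to an unknown seed protein, had 99.8, 51.0 and 23.2 in the cold plants, against 0, 0.904 and 0 in the standard plants (4.50 ± 0.69, adjusted p = 0.00472). MES18, a methyl esterase, had 25.6, 57.6 and 67.5 in the cold plants and was listed at 0 in all standard plants (adjusted p = 0.0233). AT5G28610 had 67.4, 27.7 and 87.8 in the cold plants, against 1.16, 0 and 2.67 in the standard plants (4.21 ± 0.91, adjusted p = 0.0305). All 3 were separated between the groups, with wide spreads among the cold plants. The MES18 and AT5G28610 calls were lost without any 1 of cold replicates 2 and 3 and standard replicates 2 and 3, and that of AT5G28610 also without cold replicate 1. AT3G58550, of the lipid-transfer and seed albumin superfamily, had 424, 22.2 and 16.4 in the cold plants, against 0, 0.904 and 0 in the standard plants (4.66 ± 0.98, adjusted p = 0.0281). AT4G38080, a hydroxyproline-rich glycoprotein family gene, had 451, 35.5 and 29.9 in the cold plants, against 8.10, 0 and 0 in the standard plants (4.57 ± 0.98, adjusted p = 0.0295). In both, cold replicate 1, the plant with 7 of 8 root markers above 0, stood 5 times or more above the other cold plants. Both calls were lost without it, without standard replicate 2 or without standard replicate 3, and that of AT4G38080 also without cold replicate 2.

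**Figure D3:**
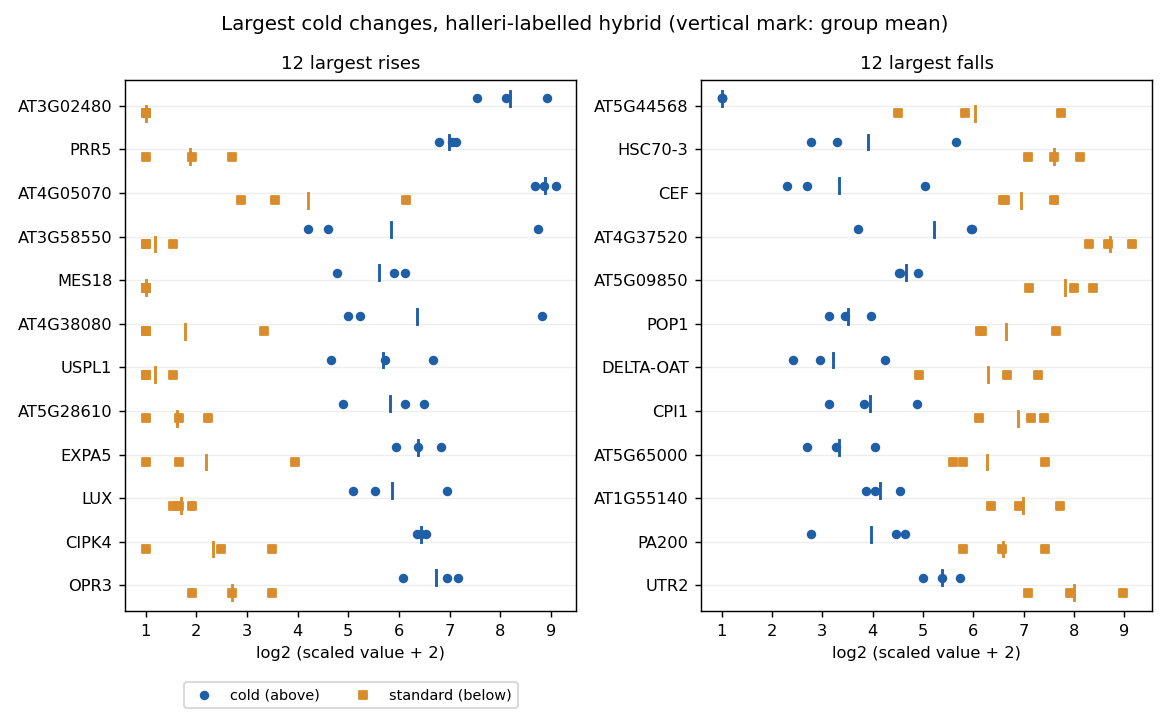
log2 of the scaled value plus 2 in each plant for the 12 largest rises (left) and 12 largest falls (right) among called genes that averaged 50 or more in the higher group and did not overlap, with cold plants as circles above standard plants as squares and group means as vertical marks. AT3G58550 and AT4G38080 show 1 cold plant far to the right of the other cold plants, and AT5G44568 sits at its lowest possible point in all 3 cold plants.

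Several genes outside those 12 also rose, and they are named after their values were seen. BT1, a BTB and TAZ domain scaffold protein, had 894, 1890 and 355 in the cold plants, against 37.0, 53.3 and 118 in the standard plants (3.73 ± 0.72, adjusted p = 0.0161). RGF9, annotated as a root meristem growth factor, one of a family of secreted signalling peptides, had 808, 1831 and 1797 in the cold plants, against 42.8, 178 and 175 in the standard plants (3.62 ± 0.60, adjusted p = 0.00719). GSTU13, a glutathione transferase, had 590, 321 and 348 in the cold plants, against 61.3, 37.9 and 39.2 in the standard plants (3.11 ± 0.43, adjusted p = 0.00209). The cold plants lay above the standard plants without overlap in each. AT1G64680, annotated as the beta-carotene isomerase D27, an enzyme of strigolactone synthesis, had 608, 910 and 169 in the cold plants, against 32.4, 22.6 and 27.6 in the standard plants (3.96 ± 0.65, adjusted p = 0.00694). AMT1;2, an ammonium transporter, had 52.1, 21.1 and 12.5 in the cold plants and was listed at 0 in all standard plants (adjusted p = 0.00853). CP12-1, the small protein that links 2 Calvin cycle enzymes in the dark, had 1679, 8264 and 2923 in the cold plants, against 791, 73.2 and 184 in the standard plants (3.95 ± 0.85, adjusted p = 0.0305). CP12-1 was the 1 called gene among the 23 that crowded at the top of a cold plant, which it did in cold replicate 2. In 11 of the 72 rises standard replicate 1 stood at 5 times or more of both other standard plants, among them TOR, the growth-controlling kinase, with 25.6, 121 and 87.8 in the cold plants and 26.6, 0 and 0 in the standard plants; it was the 1 called gene whose groups overlapped. The calls of TOR and CP12-1 were lost without any 1 of cold replicates 2 and 3 and standard replicates 2 and 3, and that of BT1 without cold replicate 2 or standard replicate 2.

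The 12 largest falls included an uncharacterised gene and genes of chaperone, RNA and proteasome proteins. AT5G44568 (chromosome 5, 17961019 to 17962276), was listed at 0 in all 3 cold plants, against 213, 20.8 and 55.2 in the standard plants (adjusted p = 0.00602). HSC70-3, a cytosolic chaperone of the heat shock 70 family, had 48.6, 7.76 and 4.82 in the cold plants, against 193, 134 and 276 in the standard plants (-3.70 ± 0.77, adjusted p = 0.0252). POP1, a subunit of the ribonuclease that trims transfer RNA precursors, had 13.7, 8.87 and 6.75 in the cold plants, against 68.2, 199 and 70.4 in the standard plants (-3.14 ± 0.66, adjusted p = 0.0281). The groups were apart in each, and the HSC70-3 and POP1 calls were lost without any 1 of cold replicates 2 and 3 and standard replicates 2 and 3. AT5G09850, of the family of the elongation factor TFIIS, had 21.3, 21.1 and 28.0 in the cold plants, against 136, 330 and 255 in the standard plants (-3.17 ± 0.55, adjusted p = 0.00853). AT1G55140, of the ribonuclease III family, had 21.3, 14.4 and 12.5 in the cold plants, against 208, 117 and 80.2 in the standard plants (-2.84 ± 0.53, adjusted p = 0.0135). PA200, an activator of the proteasome, had 23.0, 19.9 and 4.82 in the cold plants, against 53.2, 169 and 93.5 in the standard plants (-2.64 ± 0.59, adjusted p = 0.0381). The cold plants of AT5G09850 and AT1G55140 lay close together. The AT5G09850 call was lost without standard replicate 2, the AT1G55140 and PA200 calls without that plant, cold replicate 2 or cold replicate 3, and the PA200 call also without standard replicate 3.

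The remaining large falls were of enzymes and transporters and of CEF, whose role the annotation does not give. DELTA-OAT, the ornithine aminotransferase that acts in arginine breakdown, had 17.1, 3.32 and 5.79 in the cold plants, against 154, 99.4 and 28.5 in the standard plants (-3.08 ± 0.65, adjusted p = 0.0289). CPI1, an isomerase of sterol synthesis, had 27.3, 12.2 and 6.75 in the cold plants, against 67.1, 139 and 168 in the standard plants (-2.94 ± 0.58, adjusted p = 0.0188). AT4G37520, a peroxidase, had 59.7, 11.1 and 60.8 in the cold plants, against 313, 410 and 568 in the standard plants (-3.505 ± 0.80, adjusted p = 0.0412). The groups were apart in all 3, and each call was lost without cold replicate 2, cold replicate 3 or standard replicate 2, those of CPI1 and AT4G37520 also without standard replicate 3. The nucleotide-sugar transporter AT5G65000 fell by 2.94, the UDP-galactose transporter UTR2 by 2.63 and CEF by 3.61 on the log2 scale. The AT5G65000 call was lost without any 1 of the 6 plants, the UTR2 call without any but standard replicate 1, and the CEF call without cold replicate 2, cold replicate 3 or standard replicate 3. COX6B and AT3G04840 were outside those 12 and are named after their values were seen. COX6B, a subunit of mitochondrial cytochrome oxidase, had 105, 98.6 and 81.0 in the cold plants, against 494, 436 and 320 in the standard plants (-2.10 ± 0.40, adjusted p = 0.0158). AT3G04840, the ribosomal protein S3Ae, had 554, 335 and 490 in the cold plants, against 2914, 2301 and 1729 in the standard plants (-2.33 ± 0.40, adjusted p = 0.00853). Both groups of plants were fairly even in these genes; the COX6B call was lost without cold replicate 2, cold replicate 3 or standard replicate 2, and the AT3G04840 call without cold replicate 2.

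Genes of cold, clock, hormone, light and growth pathways, tissue markers and reference genes were described through 24 lists of 458 genes, of which 352 were in the files and 280 were tested. Of these, 10 passed, 9 rises and 1 fall, which is 3.57% of the listed genes tested against the 0.882% of all genes. The lists were chosen with earlier results of these data known, which can favour called genes. The higher share is therefore a description and cannot show an excess of calls among these pathways. As background to the list counts below, 1616 of all 11564 genes had an unadjusted p under 0.05 in either direction. Without standard replicate 1, limma called 371 of the 11564 as rises and 63 as falls.

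**Figure D4:**
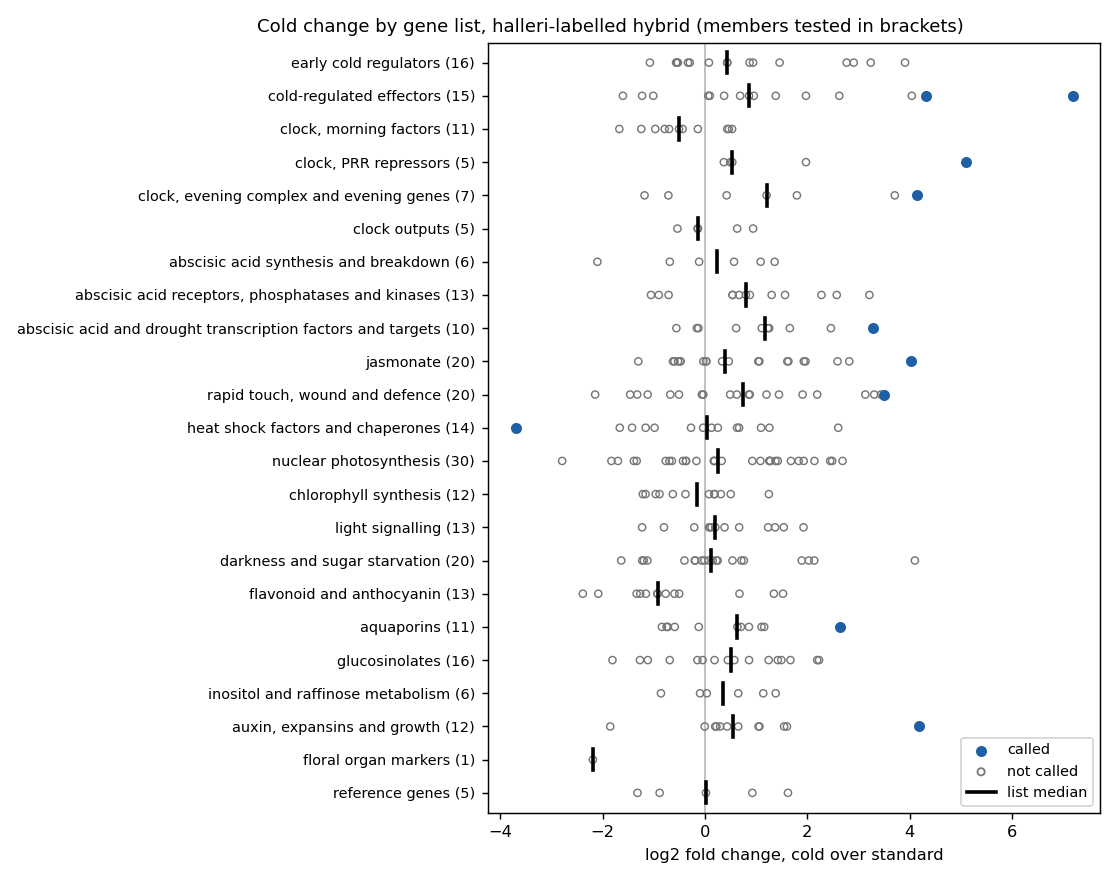
log2 fold change, cold over standard, for each tested member of 23 lists (number tested in brackets), with called genes as filled circles, other genes as open circles, list medians as black marks and the median of all genes as the grey line. Called genes are single points at the ends of their lists, and values of genes listed at 0 in a group (AT3G02480 at the far right, COR28) depend on the 2 added before log2.

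Early regulators of the cold response did not pass the test. Of 27 on the list 22 were in the files and 16 were tested: limma called none, 4 were higher and none lower at an unadjusted p under 0.05, and the median log2 fold change was 0.44. That median was 0.03 without standard replicate 2, 0.78 without standard replicate 1 and 0.80 without cold replicate 1. The 4 were HSFC1, CRF2, ZAT10 and SZF1, all transcriptional regulators that rise quickly under stress in *A. thaliana*. HSFC1 had 107, 18.8 and 53.1 in the cold plants, against 0, 0 and 7.13 in the standard plants (3.91 ± 1.08, adjusted p = 0.0887). ZAT10, a zinc finger repressor, had 32.4, 51.0 and 73.3 in the cold plants, against 6.94, 3.61 and 4.45 in the standard plants (2.91 ± 0.86, adjusted p = 0.112). CRF2, a cytokinin response factor, had 136, 66.5 and 86.8 in the cold plants, against 22.0, 3.61 and 5.34 in the standard plants (3.24 ± 0.95, adjusted p = 0.11) and was called without standard replicate 1. None of these overlapped between groups, a state that 7.96% of all tested genes reached in this direction. ICE1 had a log2 fold change of -0.56 ± 0.63. CBF2 was under the filter, with 5.97, 8.87 and 11.6 in the cold plants and 3.47, 0 and 0 in the standard plants. CBF4 was listed at 0 in all 6 plants, and CBF1 and CBF3 were not analysed here.

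Among the 15 tested effectors of cold tolerance, AT3G02480 and COR28 rose, none fell, and the median was 0.86; without cold replicate 2 FAD8, a plastid fatty acid desaturase, was called as a fall. RAB18, a dehydrin, had 78.5, 165 and 205 in the cold plants, against 71.7, 0.904 and 0.891 in the standard plants (4.04 ± 1.02, adjusted p = 0.0605). Its cold plants all lay above the standard plants, but standard replicate 1 came close to cold replicate 1, and the gene was called without standard replicate 1. RCI2A, a small membrane protein of cold tolerance, had 741, 248 and 205 in the cold plants, against 26.6, 26.2 and 200 in the standard plants (2.63 ± 0.74, adjusted p = 0.092), and it was called without standard replicate 3. COR47, a dehydrin that is a classical target of CBF factors, had 1305, 546 and 410 in the cold plants, against 1712, 546 and 255 in the standard plants (0.10 ± 0.61). RD29A, which responds to cold and drought, had 105, 67.6 and 105 in the cold plants, against 246, 43.4 and 59.7 in the standard plants (0.07 ± 0.78). The groups overlapped in COR47 and RD29A.

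Of the abscisic acid genes, ABF1 passed. ABF1, a transcription factor that binds the abscisic acid response element, had 112, 25.5 and 62.7 in the cold plants, against 8.10, 0.904 and 5.34 in the standard plants (3.29 ± 0.62, adjusted p = 0.0153). The groups were apart, but the cold plants spanned a wide range, and the call was lost without cold replicate 3 or standard replicate 2. It was 1 rise among 10 tested transcription factors and targets (median 1.17, and 0.72 without standard replicate 1), with no fall. Of 13 receptors, phosphatases and kinases limma called none (4 higher and none lower at an unadjusted p under 0.05), and the median was 0.80. Some receptor genes were high in standard replicate 1 alone among the standard plants: PYL4 had 116, 202 and 280 in the cold plants, against 121, 12.7 and 2.67 in the standard plants, and PYL6 had 92.2, 59.8 and 24.1 in the cold plants, against 92.5, 0 and 1.78 in the standard plants. PYR1 had 498, 184 and 334 in the cold plants, against 110, 27.1 and 82.0 in the standard plants (2.28 ± 0.56, adjusted p = 0.0564). Without standard replicate 1, PYR1, PYL4, PYL5 and PYL6 were called as 4 rises of 13, in a fit that called 371 of all 11564 genes as rises. None of the 6 genes of synthesis and breakdown passed (none higher and 1 lower at an unadjusted p under 0.05).

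Jasmonate and touch genes gave 1 rise each and no fall. OPR3, described above, was the 1 of 20 jasmonate genes that passed (median 0.40, from 0.21 without standard replicate 3 to 0.76 without cold replicate 1). MYC2, the master transcription factor of jasmonate responses, had 89.6, 683 and 119 in the cold plants, against 67.1, 64.2 and 2.67 in the standard plants (2.82 ± 0.99, adjusted p = 0.183), without overlap. ERF6, an ethylene response factor active in stress, had 31.6, 28.8 and 28.9 in the cold plants, against 3.47, 0 and 0 in the standard plants (3.505 ± 0.69, adjusted p = 0.0188). The cold plants of ERF6 were nearly equal, its call was lost without any 1 of cold replicates 2 and 3 and standard replicates 2 and 3, and it was the 1 rise among 20 touch, wound and defence genes (median 0.74); without standard replicate 1 ERF4 and ERF8 were called as well. WRKY33 had 182, 145 and 146 in the cold plants, against 16.2, 43.4 and 89.1 in the standard plants (1.91 ± 0.80), and WRKY53 had 8.53, 28.8 and 21.2 in the cold plants, against 57.8, 136 and 76.6 in the standard plants (-2.14 ± 0.67). Neither passed, although neither overlapped.

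HSC70-3, described among the falls, was 1 of 14 tested heat shock factors and chaperones that passed, and the list median was 0.05, on either side of 0 without 1 plant (-0.04 to 0.18). The small heat shock gene HSP18.2 lay the other way without passing, with 250, 11.1 and 17.36 in the cold plants and 8.10, 1.81 and 5.34 in the standard plants.

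Nuclear photosynthesis genes did not pass, and 17 of them were among the genes crowded at the top of the cold plants. Fold changes of crowded genes are given as computed, and whether the crowding altered them was not tested. Of 30 tested, limma called none, 8 were higher and 4 lower at an unadjusted p under 0.05, and the median was 0.26, against 0.92 without cold replicate 1 and 0.10 without cold replicate 3. RBCS1A, a small subunit of Rubisco, had 4716, 8376 and 6015 in the cold plants, against 30297, 49565 and 52241 in the standard plants (-2.79 ± 0.99, adjusted p = 0.189). RCA, the activator of Rubisco, had 4657, 8390 and 6000 in the cold plants, against 23125, 17263 and 9377 in the standard plants (-1.33 ± 0.51, adjusted p = 0.225). LHCA2, a light-harvesting protein of photosystem I, had 4303, 8361 and 6070 in the cold plants, against 3824, 2031 and 1588 in the standard plants (1.38 ± 0.50, adjusted p = 0.195). Within each cold plant these genes lay within 10% of each other, although they differed many-fold in the standard plants, and each lay within 5% of that plant's highest gene in at least 1 cold plant. Over the 23 genes so placed, 14 had a positive and 9 a negative log2 fold change (-2.79 to 3.95, median 0.18). PETE2, a plastocyanin, had 3818, 8253 and 5908 in the cold plants, against 1642, 1112 and 574 in the standard plants (2.49 ± 0.63, adjusted p = 0.0605). PSAK, of photosystem I, had 1051, 7025 and 4639 in the cold plants, against 16481, 93.1 and 79.3 in the standard plants, so standard replicate 1 alone was high. Without standard replicate 1, PETE2, PSAK, PSAG, PSBR, PSBO2 and LHCB4.1 were called as 6 rises of 30. That fit called 371 of all 11564 genes as rises.

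The lists on light, sugar and pigments gave no call by limma; without standard replicate 1, PIF1 and DRM2 (AT2G33830) were called as rises. Of 13 light signalling genes 2 were higher and none lower at an unadjusted p under 0.05, of 12 chlorophyll genes 1 and 1, of 20 darkness and sugar genes 2 and 1, and of 13 flavonoid genes none and 3. Flavonoid and anthocyanin genes had the lowest median of the lists with 5 or more tested members, -0.92, with 10 of 13 negative (-0.56 without cold replicate 2). DFR, of anthocyanin synthesis, had 10.2, 0 and 0.965 in the cold plants, against 47.4, 9.04 and 16.9 in the standard plants (-2.38 ± 0.74, adjusted p = 0.13). BBX22, a light-induced B-box factor, had 151, 399 and 264 in the cold plants, against 78.6, 74.1 and 46.3 in the standard plants (1.93 ± 0.53, adjusted p = 0.0887). DIN3, of branched-chain amino acid breakdown and induced by darkness in *A. thaliana*, had 34.1, 55.4 and 34.7 in the cold plants, against 117, 124 and 151 in the standard plants (-1.63 ± 0.47, adjusted p = 0.103). BBX22 and DIN3 were apart between groups, while DFR overlapped and was called as a fall without cold replicate 1.

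PIP2;1, a water channel of the plasma membrane (chromosome 3, 19803473 to 19805730), rose as 1 of 11 aquaporins tested. Its scaled value was 1139, 3895 and 4024 in the cold plants, against 764, 278 and 339 in the standard plants (2.65 ± 0.51, adjusted p = 0.0158). The cold plants all lay above the standard plants, although cold replicate 1 was nearer to standard replicate 1 than to the other cold plants. The call was lost without any 1 of cold replicates 2 and 3 and standard replicates 2 and 3 (adjusted p up to 0.102). The other 10 aquaporins had log2 fold changes of -0.84 to 1.16, none passed, and reads of near-identical family members, here as in the light-harvesting and CBF families, may be split between genes by the authors' counting. Among 12 auxin, expansin and growth genes EXPA5 rose and none fell. XTH4, a wall-modifying enzyme, had 509, 297 and 261 in the cold plants, against 1721, 1148 and 950 in the standard plants (-1.85 ± 0.46, adjusted p = 0.0564), and was called as a fall without cold replicate 1. None of 16 glucosinolate genes (5 higher and 2 lower at an unadjusted p under 0.05) and none of 6 inositol and raffinose genes (none either way) passed by limma. Of 5 reference genes limma called none, with 1 higher and 1 lower at an unadjusted p under 0.05, and YLS8 had 346, 566 and 622 in the cold plants and 738, 376 and 420 in the standard plants. The root list had no tested member and the floral list had SEP3 alone, which did not pass but was called as a fall without cold replicate 3 or standard replicate 1.

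In 68 of the 72 rises both alleles were higher in all 3 cold plants than in any standard plant, as in 4.34% of all genes tested, and in 27 of the 30 falls both were lower, as in 3.89% of all genes. The genes had been called on the sum of the same alleles, so these counts are a description. The log2 ratio of the non-thaliana to the thaliana allele was tested between cold and standard plants in 9943 genes, and limma called 134 (1.35%), 51 higher (0.513%) and 83 lower (0.835%) in cold. Of the 102 called genes 86 were tested for the ratio, and 5 were called there as well. POP1 had 9, 5 and 4 of the non-thaliana and 7, 3 and 3 of the thaliana allele in the cold plants, against 58, 210 and 78 and 1, 10 and 1 in the standard plants, a ratio change of -4.41 ± 0.46 (adjusted p = 0.0048). Its fall was thus a fall of the non-thaliana allele, which held nearly all of its level in the standard plants. AT3G62550 had 332, 277 and 306 of the non-thaliana and 305, 300 and 317 of the thaliana allele in the cold plants, against 46, 58 and 151 and 9, 25 and 33 in the standard plants, a change of -1.87 ± 0.30 (adjusted p = 0.0226). The alleles were near equal in cold and the non-thaliana allele was higher in every standard plant. AT3G15780 changed by -1.90 ± 0.28 and AT5G09850 by -1.39 ± 0.24 in the log2 ratio. The POP1 ratio call was kept in every fit without 1 plant, while those of AT3G62550, AT3G15780 and AT5G09850 were lost in 4, 4 and 5 of the 6 such fits. USPL1 changed by 4.35 ± 0.62, but its standard plants held a single deposited unit in all, so its ratio there has no data behind it.

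Because the lists were chosen with earlier results of these data known, their share of ratio calls is likewise a description. Of 253 listed genes tested for the ratio, 10 were called (3.95%), 3 higher and 7 lower in cold. COR47, whose total level overlapped between the groups, was one of them: the non-thaliana allele had 802, 301 and 234 and the thaliana allele 727, 192 and 191 in the cold plants, against 1090, 457 and 218 and 390, 147 and 68 in the standard plants. The non-thaliana allele led in every plant, by a mean log2 ratio of 0.36 in cold and 1.59 in standard plants, a change of -1.23 ± 0.22 (adjusted p = 0.0337). RCI2A had 170, 24 and 27 of the non-thaliana and 698, 200 and 185 of the thaliana allele in the cold plants, against 12, 10 and 84 and 11, 19 and 140 in the standard plants (-2.10 ± 0.42, adjusted p = 0.0468). PYR1 changed by -1.16 ± 0.20 (adjusted p = 0.0293). Each of the 3 COR47, RCI2A and PYR1 changes was toward the thaliana allele, and the calls of COR47 and PYR1 were lost in 5 and that of RCI2A in 6 of the 6 fits without 1 plant (adjusted p up to 0.155).

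The cold response was then set against that of the lyrata-labelled hybrid, whose 6 plants share no sample with the halleri-labelled ones. The test of the difference between the responses called 2 of 11564 genes (0.0173%), both with a higher response in the halleri-labelled plants, and 863 had an unadjusted p under 0.05. AT3G02480 had 24.4, 1.76 and 7.42 in the lyrata-labelled cold plants and 10.4, 14.2 and 0 in the lyrata-labelled standard plants, so those groups overlapped at a level far under the 183 to 482 of the halleri-labelled cold plants (interaction adjusted p = 0.0186). PIP2;1 had 525, 546 and 618 in the lyrata-labelled cold plants, against 2853, 1646 and 2203 in the lyrata-labelled standard plants. It was thus lower in every lyrata-labelled cold plant and higher in every halleri-labelled cold plant than in the standard plants of the same hybrid, a difference in log2 response of 4.60 ± 0.71 (adjusted p = 0.0186). The AT3G02480 call was lost in 7 and the PIP2;1 call in 10 of the 12 fits that left out 1 of the 12 plants, with an adjusted p of up to 0.109, and a fit of the 12 libraries alone called none (709 genes at an unadjusted p under 0.05).

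PRR5, LUX and COR28 had responses of similar size in both hybrids. PRR5 had 228, 286 and 171 in the lyrata-labelled cold plants, against 6.47, 8.50 and 8.00 in the standard plants, and the difference in response was 0.56 ± 0.78 (adjusted p = 0.88). For LUX the difference was 0.13 ± 0.86 (adjusted p = 0.99), and for COR28, listed at 0 in all standard plants of both hybrids, the adjusted p was 0.926. A p that misses the threshold does not show that the responses were equal. EXPA5 had 54.9, 94.2 and 62.1 in the lyrata-labelled cold plants, against 287, 176 and 100.95 in the lyrata-labelled standard plants, with a difference in response of 5.49 ± 1.04 that did not pass (adjusted p = 0.157). Among the 72 rises 55 had a lyrata-labelled change of the same sign, and among the 30 falls 25 did. The lyrata-labelled sign was taken from group means of the scaled value and not from the fitted change, so 1 high plant can set it. The share over all genes was not computed, so these counts are a description. The median difference in log2 response, halleri-labelled minus lyrata-labelled, was 2.09 among the rises and -1.65 among the falls, against -0.07 over all genes. The genes were chosen on the halleri-labelled plants, a choice that favours a larger response there.

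**Figure D5:**
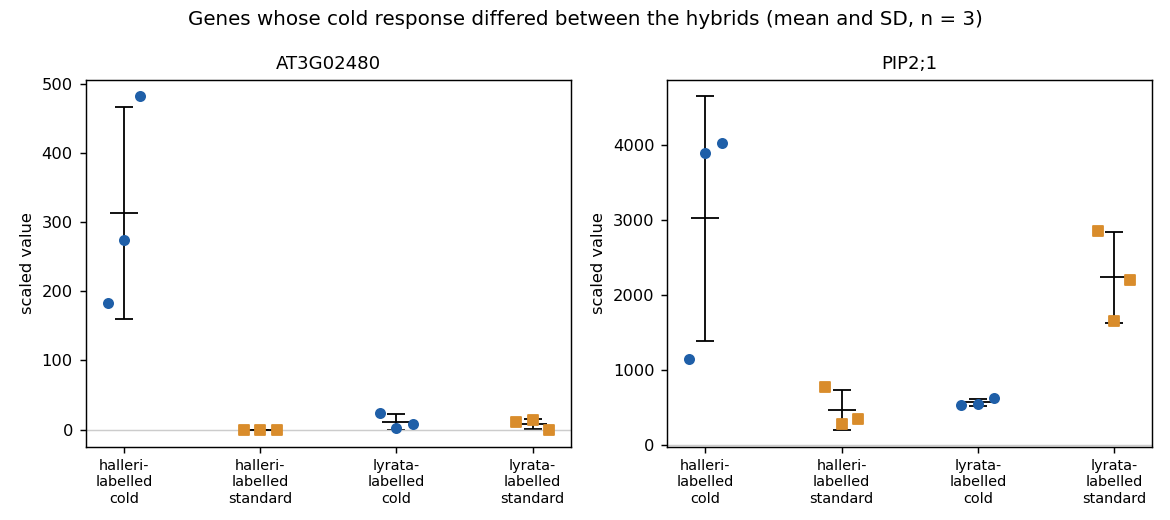
Scaled value of AT3G02480 (left) and PIP2;1 (right) in each cold and standard plant of the halleri-labelled and lyrata-labelled hybrids, with mean and SD (n = 3). AT3G02480 is high in the halleri-labelled cold plants, and PIP2;1 is highest in 2 halleri-labelled cold plants and in the lyrata-labelled standard plants.

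Dehydrated plants of the same hybrid had also spent 1 hour in dim light, but at 22 °C. The direct test of cold against dehydrated plants called 6 of 11564 genes (0.0519%), all higher in cold, and 1467 had an unadjusted p under 0.05. ARR6, a repressor of cytokinin signalling, had 446, 724 and 711 in the cold plants, 92.8, 128 and 92.0 in the dehydrated plants and 126, 98.5 and 70.4 in the standard plants. It was higher in cold than in dehydrated plants (2.55 ± 0.47, adjusted p = 0.0497) and than in standard plants (2.65 ± 0.47, adjusted p = 0.00853), without overlap. HLS1, which keeps the apical hook of seedlings bent, was called in both comparisons too, at 13.7, 14.4 and 17.36 in the cold plants, 0 in all dehydrated plants and 1.16, 0 and 3.56 in the standard plants. ROC4, a plastid cyclophilin, had 707, 3252 and 2442 in the cold plants, 152, 63.4 and 20.1 in the dehydrated plants and 650, 1907 and 3011 in the standard plants. It differed from dehydrated plants (4.88 ± 0.71, adjusted p = 0.0146), while cold and standard plants overlapped. AT3G13930, AT5G43790 and AT1G69760 were likewise called against dehydrated plants and not against standard plants. Each of the 6 calls was lost in 3 to 5 of the 6 fits that left out 1 cold or dehydrated plant. PRR5 had 198, 177 and 94.1 in the dehydrated plants, which overlapped the cold plants, and AT3G02480 had 31.3, 30.7 and 20.1, under every cold plant but not past the threshold (adjusted p = 0.0874). Whole numbers were missing at steps from the dehydrated libraries' values and not from the cold ones, as values scaled up from fewer reads would show; their depth is unknown, and its part in these calls was not tested.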

How the data were processed

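RNA-seq libraries of 18 F1 hybrid plants were read as 1 file per plant with 1 value per allele and gene. In each deposited file the values are scores: numbers of reads per allele that the authors had scaled to near-equal totals and rounded, with 1 added, as the values themselves show. The build TAIR10 and the tools TopHat2, DESeq2 and SAMtools are listed per the submitters' processing notes, without roles or versions. Per the labels' protocols the kit was TruSeq v2, which does not keep strand, so reads of a gene and of one overlapping it on the other strand cannot be separated. The depth before scaling is not known here.

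The 2 allele scores were summed and reduced by 2, scaled by trimmed means of log ratios (TMM), and kept where the sum reached 10 in at least 3 of the 6 libraries compared, which left 11564 genes. The log2 of the scaled value plus 2 was tested with limma 3.58.1 in R 4.3.3 (trend and robust settings) over all 18 libraries in 6 groups, which share 1 estimate of the spread, and p-values were adjusted by Benjamini and Hochberg over all genes tested. A called gene has an adjusted p below 0.05, and fold changes understate low genes. Allele ratios were tested with limma on the log2 ratio of the deposited scores, for genes with a mean of 10 or more per plant. On simulated data with known changes the cold test found 38 of the 100 genes given a 4-fold change and 92 of the 100 given a 16-fold change, with 8 false calls among 138. The simulated noise was independent between genes, without shifts of a whole plant or crowded top values. Changes were placed only in genes of higher level. These rates therefore do not carry over to the calls given here.

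Genes were named by rule: the 12 largest changes in each direction among called genes that averaged 50 or more in the higher group and did not overlap, up to 3 listed genes of smallest p per list, and the 5 largest called differences between hybrids per direction; further list members are given by value. The comparison, the lists and this rule were chosen with earlier results of these data known. Of 16419 genes, 16404 matched TAIR10.1 (RefSeq), which gave coordinates, products and promoters. Alternatives were other scalings, filters, added values, libraries in the fit, a replicate block, library weights and leaving out plants. The labels describe replicates grown at weekly intervals and do not say that a number marks a week.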

Additional observations from a re-analysis of the deposited data

Results flagged for a closer look

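The cold response of 2 genes differed between the hybrids by the interaction test of limma, halleri-labelled minus lyrata-labelled. For AT3G02480 the difference in log2 response was 6.78 ± 1.02 (SE, adjusted p = 0.0186), a fitted value that depends on the 2 added before log2 because the halleri-labelled standard plants were listed at 0. For PIP2;1 it was 4.60 ± 0.71 (adjusted p = 0.0186). Groups of 3 plants were not tested for outlying samples.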

How the results depend on the processing

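For cold against standard plants the count of 102 became 60 with a mean minimum of 50, 2 with only the libraries compared in the fit, 399 with library weights, and 207 when 3 libraries were dropped chosen as standing apart from earlier results (lyrata-labelled standard replicate 1 and dehydration replicate 2, halleri-labelled cold replicate 1). Without 1 plant it ran from 27 to 434, the highest without halleri-labelled standard replicate 1, which is not among those 3. The scaling without the highest genes, chosen after seeing the data, gave 113, and 102 of the 102 were among them. With values scaled as deposited, 96 of 123 calls were higher in cold. For the difference between hybrids the count of 2 became 1 with 0.5 added, 0 with only the libraries compared, 0 with the replicate block and 19 with library weights, and ran from 0 to 134 without 1 plant. For cold against dehydrated plants the count of 6 became 3 scaled as deposited, 33 with no filter, 10 with 10 added, 0 with only the libraries compared, 0 with the replicate block, 395 with library weights and 60 when those 3 libraries were dropped, and ran from 0 to 39 without 1 plant. For the allele ratio the count of 134 became 60 with only the libraries compared, 217 with a mean minimum of 50 and 43 with the replicate block, and ran from 8 to 325 without 1 plant. The cause of these shifts was not tested, beyond the fewer libraries or genes of some settings.

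Cold and standard plants share replicate numbers. The replicate block gave 70 calls for cold against standard, 65 of them among the 102. The numbers were not taken to pair plants, and the labels do not say that a number marks a week. Correlations of same-numbered deviations were 0.179, 0.049 and 0.058, against -0.127 to 0.094 between different numbers. Cold replicates 2 and 3 correlated best with another number (0.055 and 0.094). Deviations within a group sum to 0, so these correlations are not independent and cannot decide whether plants were paired. Among the 186 gene results followed under the alternatives, no value reversed its direction: 2332 stayed on their side of the threshold, 672 lost a call and 46 gained one. Depth is unknown, so precision at low values cannot be stated.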

Other observations

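Type-A response regulators, which dampen cytokinin signalling, were looked at after ARR6 was seen among the rises, so their list was chosen after seeing the data. Of 10 on it 7 were in the files and 6 were tested; 2 rose (0.623% of all genes tested did), none fell, 5 were positive, and the median log2 fold change was 2.17, against 0.004 over all genes. ARR15 had 60.6, 208 and 149 in the cold plants, against 9.25, 27.1 and 11.6 in the standard plants (2.93 ± 0.57, limma adjusted p = 0.0161), without overlap. Its call was lost without cold replicate 2, cold replicate 3 or standard replicate 3, and that of ARR6 without cold replicate 2 or standard replicate 3. ARR5 had 122, 512 and 711 in the cold plants, against 57.8, 70.5 and 126 in the standard plants (2.12 ± 0.59, adjusted p = 0.0888), and cold replicate 1 lay just under standard replicate 3. ARR9 had 107, 299 and 114 in the cold plants, against 20.8, 19.9 and 72.2 in the standard plants (2.23 ± 1.17, adjusted p = 0.413). ARR4 had 428, 411 and 346 in the cold plants, against 222, 156 and 132 in the standard plants (1.24 ± 0.42, adjusted p = 0.177). Neither ARR9 nor ARR4 overlapped, and ARR16 lay near 0 (-0.29 ± 0.56).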
